A study of Mus musculus with 6 samples.

Results

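The 10 genes described here encode the machinery that joins small ubiquitin-like proteins to phosphatidylethanolamine on the growing autophagosome, and the cargo receptor that docks on them. They are the ATG8 proteins Gabarap, Gabarapl1, Gabarapl2, Map1lc3a and Map1lc3b, the conjugation factors Atg7, Atg3, Atg12 and Atg5, and the receptor Sqstm1 (p62). Each gene was found by its symbol among the probe sets annotated with 1 gene, and the brightest such probe set was taken for a gene with several. All 10 were found, out of 18820 genes measured, and no filter on low values was applied.

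Autophagy encloses cytoplasm, organelles or lipid droplets in a double membrane that then fuses with the lysosome. ATG4 proteases expose a glycine at the end of an ATG8 protein, ATG7 activates it, ATG3 carries it, and a complex of ATG12, ATG5 and ATG16L1 places it on the amine of phosphatidylethanolamine. Pcyt2 makes CDP-ethanolamine, an intermediate in the synthesis of that lipid. In the liver this pathway is known for supplying amino acids during fasting and for degrading p62, which accumulates when it is blocked.

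Expression was measured on Affymetrix arrays in livers of mice on the C57BL6 background that were 2 months old, 4 with the Pcyt2+/- genotype (replicates 1 to 4) and 2 wild type (replicates 3 and 4). The sample titles call the first group knock-out, whereas their genotype is listed as Pcyt2+/-, the name kept below. Each array held 1 mouse. Sex, feeding state and the making of the allele are not stated in the labels. The wild type mice carried no allele or treatment that the labels name. In whole liver a change in the number of cells of a type and a change in RNA per cell cannot be told apart.

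RefSeq promoter windows (build GRCm38.p6) were matched by symbol for 8 of the 10 genes, and Atg12 and Map1lc3a had no sequence used here. Of the 250 bases before each annotated start, the letters CACGTG, the core of the E-box that TFEB and other basic helix-loop-helix factors bind, occurred in 3 of 8 windows (37.5%), those of Atg3, Atg5 and Atg7. CACGTG reads the same on both strands, and at least 1 window held it for 6.9% of 27025 genes. The windows of Atg3 and Atg5 are shown because they hold these letters, in capitals, and those of Gabarap and Gabarapl1 because the expression values below turn on these genes. Each is given 5′ to 3′ along the strand of the gene and ends at the base before the start.

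Atg3, chr16:45158579-45158828, plus strand: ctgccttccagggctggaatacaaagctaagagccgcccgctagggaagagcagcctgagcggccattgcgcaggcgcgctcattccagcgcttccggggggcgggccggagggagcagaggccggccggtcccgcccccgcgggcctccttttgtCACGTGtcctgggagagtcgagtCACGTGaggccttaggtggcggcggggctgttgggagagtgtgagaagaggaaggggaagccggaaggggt
Atg5, chr10:44268089-44268338, plus strand: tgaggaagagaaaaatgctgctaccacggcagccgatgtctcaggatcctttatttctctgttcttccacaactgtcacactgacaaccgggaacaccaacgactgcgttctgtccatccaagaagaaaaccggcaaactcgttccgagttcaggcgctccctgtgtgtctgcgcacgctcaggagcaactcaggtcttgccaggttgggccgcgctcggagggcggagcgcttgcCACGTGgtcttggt
Gabarap, chr11:69991120-69991369, plus strand: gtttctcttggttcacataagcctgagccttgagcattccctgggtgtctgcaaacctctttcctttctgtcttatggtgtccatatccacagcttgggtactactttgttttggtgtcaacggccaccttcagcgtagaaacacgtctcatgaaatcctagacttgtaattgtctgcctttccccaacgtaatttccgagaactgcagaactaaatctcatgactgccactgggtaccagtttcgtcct
Gabarapl1, chr6:129532942-129533191, plus strand: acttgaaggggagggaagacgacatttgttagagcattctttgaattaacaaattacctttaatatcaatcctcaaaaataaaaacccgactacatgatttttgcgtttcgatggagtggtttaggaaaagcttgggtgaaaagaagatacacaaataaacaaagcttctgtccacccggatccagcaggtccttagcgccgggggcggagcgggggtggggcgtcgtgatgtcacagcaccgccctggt

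The Atg3 window held CACGTG at 2 places, which began 94 and 71 bases before the start, and the Atg5 window held it 14 bases before the start, where the annotated gene begins 17 bases upstream of that start. In Atg7 it lay 132 bases before a start that is 27969 bases inside the annotated gene, so that window is not the promoter of the longest transcript. The core of the antioxidant response element, TGANNNNGC on either strand, occurred in 5 of 8 windows, all but those of Gabarap, Gabarapl1 and Sqstm1, and in 35.2% of all 32851 windows. GC content ran from 43.2% in Atg7 to 69.6% in Map1lc3b, with a median of 52.4% over all windows. Among genes of the lysosome, 7 of 19 windows held CACGTG (Ctsa, Ctsd, Ctsl, Lamp1, Lgmn, Mcoln1 and Atp6v1a). In the rest of the autophagy machinery it was found for 4 of 46 genes (Nrbf2, Rubcn, Bnip3 and Retreg1). These matches describe letters and are not evidence of binding.

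The deposited log2 values ran from 3.96 to 13.02, with a median of 4.4 on each array, and 4.21% of genes (792) had a mean above 5. Values near that median are close to the floor of the array, where a change in RNA moves the log2 value little. Pcyt2 itself, the gene named in the genotype, was lower on each Pcyt2+/- array than on either wild type array (difference -0.20, SE 0.028, adjusted p = 0.264 by limma). Its values lay between 4.604 and 4.887, near that floor. With the median signal of the array subtracted on the linear scale, its log2 difference was -0.97 (adjusted p = 0.0671 by limma over genes with a mean above 4.6). The 6 measured hepatocyte markers all had means above 5, with Alb between 12.21 and 12.41, while the markers of 10 other cell types stayed under 5 with 1 exception in the stellate cell list. None of the marker genes passed the test over all genes. The summed linear signal of the hepatocyte markers was 11324 to 11904 in Pcyt2+/- and 11790 to 12629 in wild type, and that of the Kupffer cell markers was 198 to 202 and 200 on both wild type arrays. The Kupffer cell markers had means of 4.276 to 4.609, near the floor, so their sum says little about cell number. Of the hepatocyte markers 5 had a lower and 1 a higher mean, with the largest difference for Cps1 (-0.56, adjusted p = 0.529 by limma). The part of cell composition in the values below was not tested. The number of arrays, above all the 2 wild type arrays, limits the precision of every value below.

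None of the 10 genes was called different between Pcyt2+/- and wild type liver in a test adjusted over all genes. By limma with Benjamini-Hochberg adjustment 0 of 10 passed an adjusted p of 0.05, as did 0 of 18820 genes (0%), and the adjusted p of the 10 lay between 0.806 and 0.997. Gabarapl1 was the 1 gene with an unadjusted p under 0.05, on the higher side, and 0 were on the lower side. Over all genes 1.86% were higher and 3.44% lower by that rule, and among the 792 genes with a mean above 5 the shares were 5.56% and 14.6%. The mean was lower in Pcyt2+/- for 7 of the 10 genes and higher for 3, with a median log2 difference of -0.023, beside -0.00070 over all genes. For the 5 of the 10 with a mean above 5 the median was -0.076, beside -0.020 over the 792 brighter genes. Without wild type replicate 4 the median of the 10 genes was -0.0079. The 95% interval of the difference held 0 for 9 genes.

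**Figure D1:**
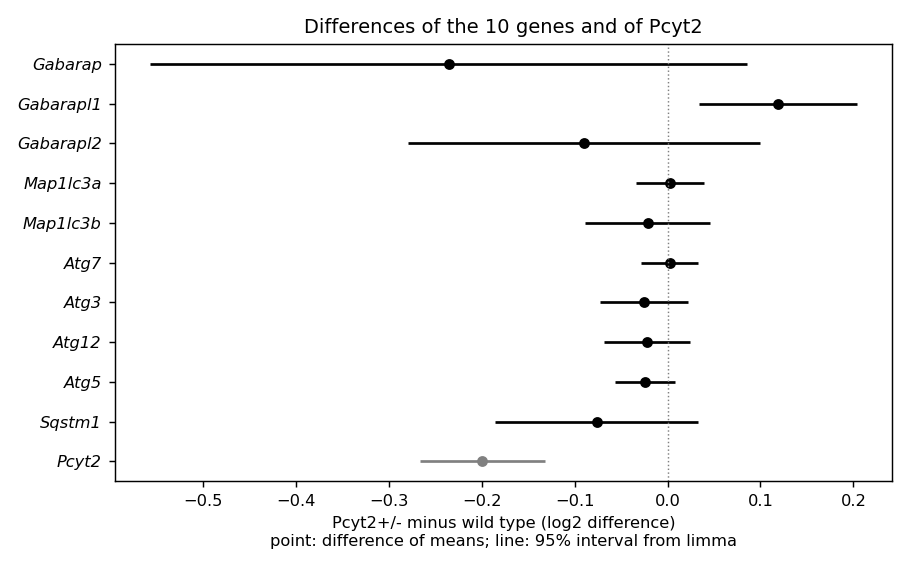
Log2 difference, Pcyt2+/- (4 arrays) minus wild type (2 arrays), for the 10 genes in black and Pcyt2 in grey; points are differences of group means and lines are 95% intervals from limma. Gabarapl1 is the 1 gene of the 10 whose interval lies to one side of 0, and Gabarap has the widest interval, from -0.56 to 0.086.

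Gabarap, Gabarapl1 and Gabarapl2 form the GABARAP branch of the ATG8 proteins, which acts in autophagosome closure and fusion and binds many cargo receptors and kinases. Gabarap had log2 values of 6.84, 6.78, 6.61 and 6.72 in Pcyt2+/- replicates 1 to 4 and of 6.71 and 7.24 in wild type replicates 3 and 4. Wild type replicate 4 stood above every other array, and wild type replicate 3 lay inside the Pcyt2+/- range. The means were 6.74 ± 0.096 (SD, n = 4) and 6.97 ± 0.37 (SD, n = 2), which puts Pcyt2+/- at -0.24 relative to wild type (SE 0.14, 95% interval -0.56 to 0.086). On the linear scale this is 0.849 times the wild type signal, with an interval of 0.680 to 1.06. It did not pass (adjusted p = 0.952), and the two-sided exact permutation test over 15 splits of the arrays gave p = 0.267, where the smallest possible value is 0.0667. The sign rested on 1 array, since the difference was 0.027 without wild type replicate 4 and -0.50 without wild type replicate 3.

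Gabarapl1 went the other way. Its log2 values were 6.07, 6.17, 6.05 and 6.05 in Pcyt2+/- replicates 1 to 4 and 5.940 and 5.996 in wild type replicates 3 and 4. All 4 Pcyt2+/- arrays were above both wild type arrays, so the groups did not overlap, with 0.056 between the wild type arrays and 0.119 between the highest and lowest Pcyt2+/- arrays. The means were 6.09 ± 0.056 (SD, n = 4) and 5.97 ± 0.039 (SD, n = 2), so that Pcyt2+/- stood 0.12 above wild type (SE 0.036, interval 0.034 to 0.20), or at 1.09 times its signal. The two-sided exact permutation test gave its smallest possible value, p = 0.0667, and limma over all genes did not call the gene (adjusted p = 0.806). Group ranges that did not overlap on the higher side were found for 5.67% of all genes and for 5.56% of the 792 brighter ones, and for 1 of the 10 genes here. With each array left out in turn the difference stayed between 0.091 and 0.15.

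Gabarapl2 (GATE-16), first known as a factor of Golgi transport, had 5.22, 5.06, 5.01 and 5.14 in Pcyt2+/- and 5.07 and 5.32 in wild type. As for Gabarap, wild type replicate 4 was the highest array, Pcyt2+/- replicate 3 the lowest, and wild type replicate 3 lay inside the Pcyt2+/- range. The difference of -0.090 (SE 0.080, interval -0.28 to 0.099) did not pass (adjusted p = 0.964). It was 0.034 without wild type replicate 4. With the median signal of the array subtracted on the linear scale, the log2 difference of Gabarapl2 was -0.214, which did not pass. The annotation assigns this probe set to Gabarapl2, and whether it reads a near-identical copy in place of the parent gene was not tested.

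**Figure D2:**
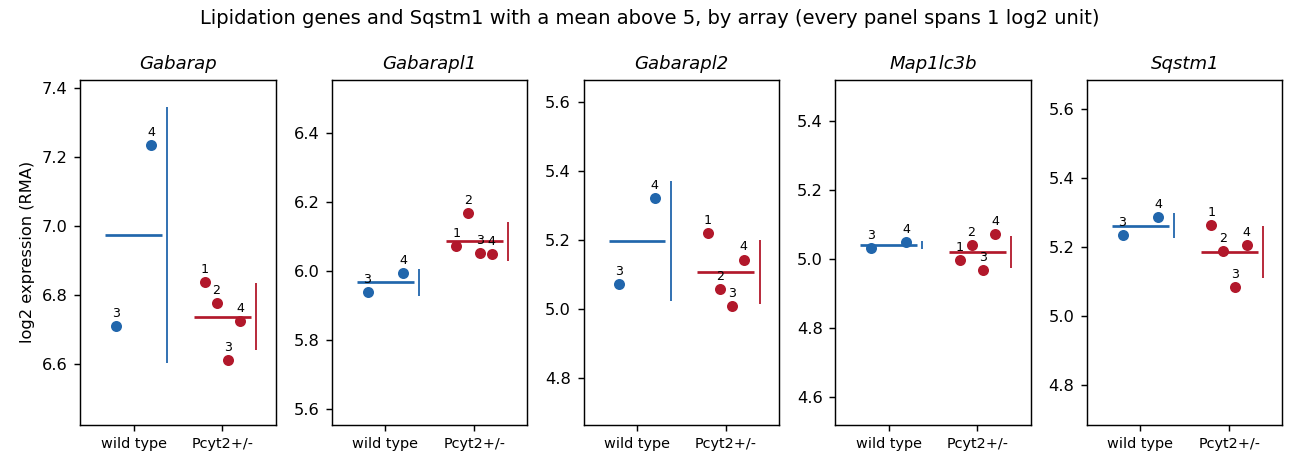
Log2 expression on each array for the 5 genes with a mean above 5; numbers are replicates, horizontal bars are group means and vertical bars are 1 SD (wild type n = 2, Pcyt2+/- n = 4), and every panel spans 1 log2 unit. Wild type replicate 4 is the highest array for Gabarap at 7.24 and for Gabarapl2 at 5.32, and for Gabarapl1 all 4 Pcyt2+/- arrays lie above both wild type arrays.

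The LC3 branch acts in membrane expansion and is the usual marker of autophagosomes. Map1lc3b had 4.998, 5.042, 4.968 and 5.073 in Pcyt2+/- and 5.034 and 5.049 in wild type, so both wild type arrays lay inside the Pcyt2+/- range. The means were 5.02 ± 0.047 (SD, n = 4) and 5.04 ± 0.010 (SD, n = 2). The difference was -0.021 with an interval of -0.089 to 0.046, or 0.940 to 1.03 times the wild type signal. With means not far above the array median of 4.4, this interval does not bound the change in RNA. With the median signal of the array subtracted on the linear scale, the log2 difference was -0.064, which did not pass. A further probe set annotated to Map1lc3b had a mean of 4.91 and differed by -0.035. The place of Map1lc3b among the genes with a mean above 5 thus rests on the choice of the brightest probe set. Map1lc3a had 4.437, 4.417, 4.460 and 4.430 against 4.448 and 4.418, and its difference was 0.0027 (interval -0.034 to 0.039). Neither LC3 gene passed (adjusted p = 0.986 for Map1lc3b and 0.997 for Map1lc3a), and Map1lc3a lay at the floor of the array. Whether the probe sets annotated to Map1lc3b read near-identical copies in place of the parent gene was likewise not tested.

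Atg7, the activating enzyme shared by ATG8 and ATG12, had 4.438, 4.464, 4.432 and 4.463 in Pcyt2+/- and 4.446 and 4.447 in wild type. Both wild type values lay between the Pcyt2+/- ones, and the difference was 0.0022 (interval -0.029 to 0.033). Atg3, the enzyme that hands ATG8 to the lipid, had 4.430, 4.462, 4.438 and 4.394 against 4.440 and 4.473, a difference of -0.026 (interval -0.073 to 0.022). Wild type replicate 4 was its highest array and wild type replicate 3 lay among the Pcyt2+/- arrays. Atg12 had 4.462, 4.508, 4.456 and 4.438 against 4.492 and 4.483, a difference of -0.022 (interval -0.068 to 0.024). Both of its wild type arrays stood above 3 of the 4 Pcyt2+/- arrays and below replicate 2. Atg5, the acceptor of ATG12, had 4.385, 4.384, 4.373 and 4.399 against 4.392 and 4.428, a difference of -0.024 (interval -0.057 to 0.0080). Wild type replicate 3 lay below Pcyt2+/- replicate 4, so the groups overlapped. Atg3 differed by -0.0095 and Atg5 by -0.0063 when wild type replicate 4 was left out. All 4 enzymes and ligase parts, like Map1lc3a, had values between 4.373 and 4.508, and none passed (adjusted p of 0.949 to 0.997). For these 5 genes the narrow intervals describe values at the floor, and a change in RNA that the array does not resolve would not be detectable here.

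**Figure D3:**
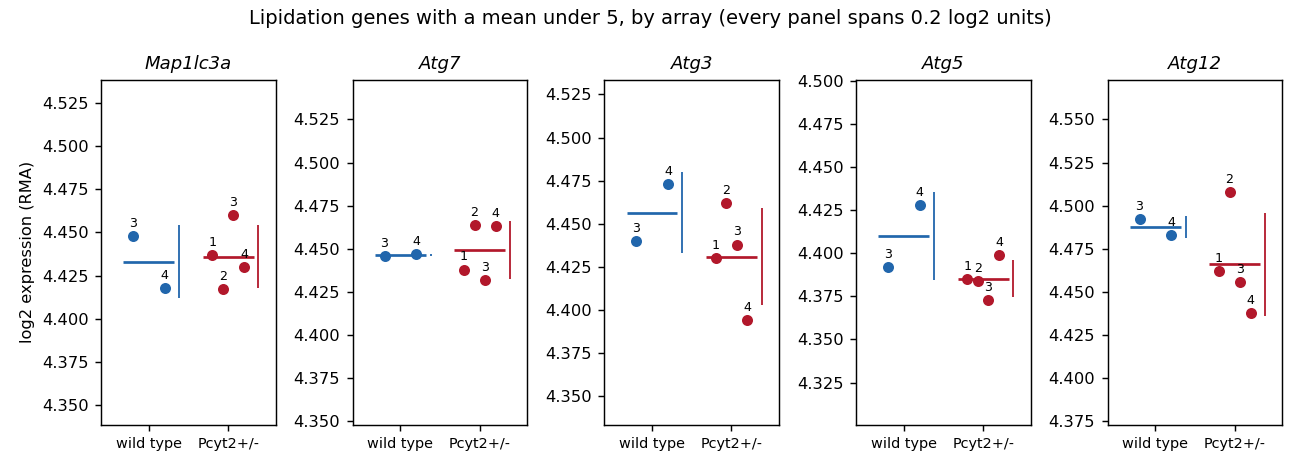
Log2 expression on each array for the 5 genes with a mean under 5, drawn as the plot of the brighter genes but with every panel spanning 0.2 log2 units; numbers are replicates, horizontal bars are means and vertical bars are 1 SD (wild type n = 2, Pcyt2+/- n = 4). All values lie between 4.373 and 4.508, and the groups overlap in every panel.

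Sqstm1, which links ubiquitinated cargo to ATG8 proteins and is itself consumed by autophagy, had 5.27, 5.19, 5.08 and 5.21 in Pcyt2+/- and 5.24 and 5.29 in wild type. Wild type replicate 4 was the highest array and Pcyt2+/- replicate 3 the lowest, and Pcyt2+/- replicate 1 stood above wild type replicate 3. The means were 5.19 ± 0.076 (SD, n = 4) and 5.26 ± 0.036 (SD, n = 2). The difference of -0.076 (SE 0.046, interval -0.19 to 0.033) did not pass (adjusted p = 0.954). It was -0.042 without Pcyt2+/- replicate 3 and -0.051 without wild type replicate 4. With the median signal of the array subtracted on the linear scale, the log2 difference of Sqstm1 was -0.181, which did not pass. A probe set annotated to both Mrnip and Sqstm1, which was not used for the gene, differed by 0.021.

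Sqstm1 is both a target of NRF2 and, through KEAP1, an activator of it. Of 15 measured genes of that pathway 0 passed the test over all genes, 6 had a lower and 9 a higher mean, and the median difference was 0.0088. Gclc, the catalytic subunit of glutathione synthesis, had a difference of 0.17 (5.58 ± 0.036, SD, n = 4, against 5.41 ± 0.039, SD, n = 2; adjusted p = 0.31), and Me1, the malic enzyme, had -0.039. Osgin1, named after its values were seen, had the difference of greatest size in the list, 0.76 (adjusted p = 0.901), with 5.81 to 6.92 in Pcyt2+/- and 5.44 and 5.49 in wild type. Its highest value was that of Pcyt2+/- replicate 1, and without that array the difference was 0.53. Nfe2l2, which encodes NRF2, had -0.055 and Keap1 had -0.0068, both at the floor and each resting on 1 array. Nfe2l2 stood at 4.562 in wild type replicate 3 and between 4.409 and 4.450 on the other 5 arrays, and its difference was 0.021 without that array. That of Keap1 was 0.0054 without wild type replicate 4.

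Among the 6 arrays, Pcyt2+/- replicate 3 and wild type replicate 4 stood at the edges for most of the brighter genes of the set. Pcyt2+/- replicate 3 was the lowest array for 4 of the 5 genes with a mean above 5, and it was the lowest for 42.8% of all 792 such genes. Wild type replicate 4 was the highest array for 3 of the 5 (Gabarap, Gabarapl2 and Sqstm1) and for 27.5% of the 792. The gap between both wild type arrays was 0.525 for Gabarap, a size reached by 24 of the 792 genes (3.03%). For Gabarapl1 neither array was at the edge, where Pcyt2+/- replicate 2 was highest and wild type replicate 3 lowest. The part of array quality in these values was not tested.

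**Figure D4:**
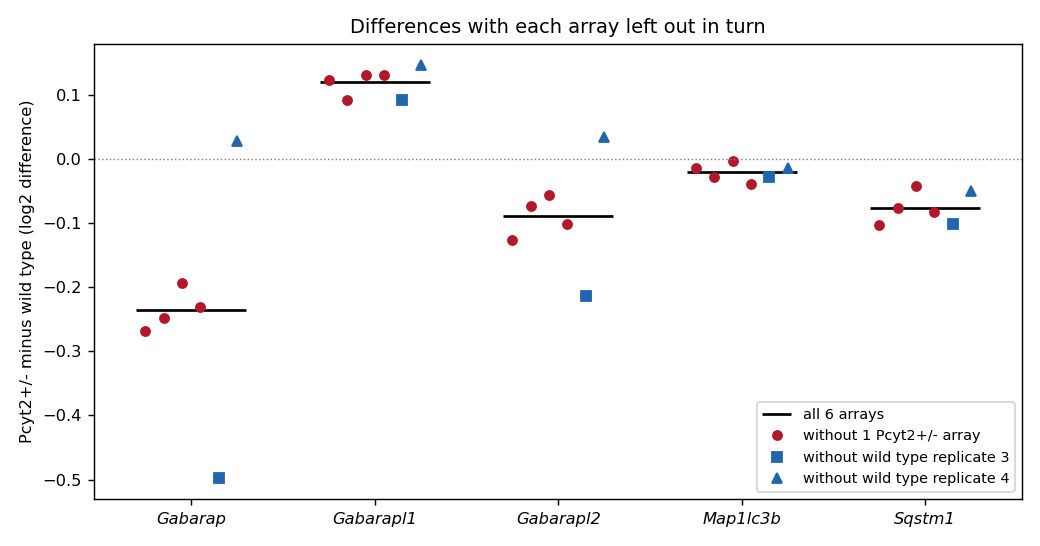
Log2 difference, Pcyt2+/- minus wild type, for the 5 genes with a mean above 5, with all 6 arrays (black bar) and with each array left out in turn (points; circles leave out a Pcyt2+/- array). Without wild type replicate 4 the differences of Gabarap and Gabarapl2 move to 0.027 and 0.034, above 0, and those of Gabarapl1 stay between 0.091 and 0.15.

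The rest of the autophagy machinery, 51 measured genes in 6 lists, held 0 genes that passed over all genes, 32 with a lower and 19 with a higher mean, and a median difference of -0.0042. The share with a lower mean was 62.7%, beside 51.9% of all genes and 62.4% of the brighter ones. Only 7 of the 51 had a mean above 5, so the brighter genes are not a like set. Group ranges did not overlap for 5 of the 51 on the lower side and 1 on the higher side, beside 7.17% and 5.67% of all genes. The same held for 121 of the 792 brighter genes (15.3%) on the lower side. Of the other conjugation and deconjugation enzymes, 3 of 7 had a lower mean (median 0.0020). Atg4b, a protease that trims ATG8 proteins, had a difference of 0.0020, Atg10, which carries ATG12 to ATG5, 0.013, and Atg16l1, the third part of the ligase, -0.0081. Without wild type replicate 4 the values of Atg4b and Atg16l1 turned to -0.017 and 0.0037. Atg4b also turned without Pcyt2+/- replicate 3 (-0.0059) and Atg16l1 without Pcyt2+/- replicate 4 (0.00070). In the initiation kinase complex all 5 genes had a lower mean (median -0.012), from -0.0015 for the kinase Ulk1 to -0.035 for its partner Atg13, and none passed. Ulk1 turned to 0.029 without wild type replicate 4, to 0.0044 without Pcyt2+/- replicate 1 and to 0.0021 without Pcyt2+/- replicate 3. Rb1cc1, the scaffold of that complex, had -0.022, and -0.0072 without Pcyt2+/- replicate 4. In the class III PI3 kinase complex 4 of 7 were lower, with Ambra1 at -0.028 and Nrbf2 at 0.019, and Becn1 had no probe set of its own gene alone. Of membrane supply and PI3P effectors 7 of 10 were lower, with Wdr45b, a PI3P-binding WIPI protein, at 0.039 and Atg2a, a lipid transfer protein, at -0.028.

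Of 13 other cargo receptors 8 had a lower mean and the median difference was -0.0032. Ncoa4, the ferritin receptor, had -0.033, which was -0.0017 without wild type replicate 4, and Ccpg1, a receptor of the endoplasmic reticulum, had -0.025. Bnip3, a mitophagy receptor named after its values were seen, had -0.14, where wild type replicate 4 stood at 5.146 and the other 5 arrays between 4.727 and 4.889. Its difference was 0.049 without that array. Of 9 fusion genes 5 were lower, with Stx17, the autophagosomal SNARE, at -0.038 (SE 0.011, adjusted p = 0.784) and its partner Vamp8 at -0.015. Among 15 regulators 5 were lower and 10 higher (median 0.0076), with Foxo1 at 0.034, Zkscan3, a repressor of autophagy genes, at 0.020, and Tfeb, the activator that binds CACGTG, at -0.0037 (4.71 ± 0.0034, SD, n = 4, against 4.72 ± 0.0014, SD, n = 2). None of these passed.

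**Figure D5:**
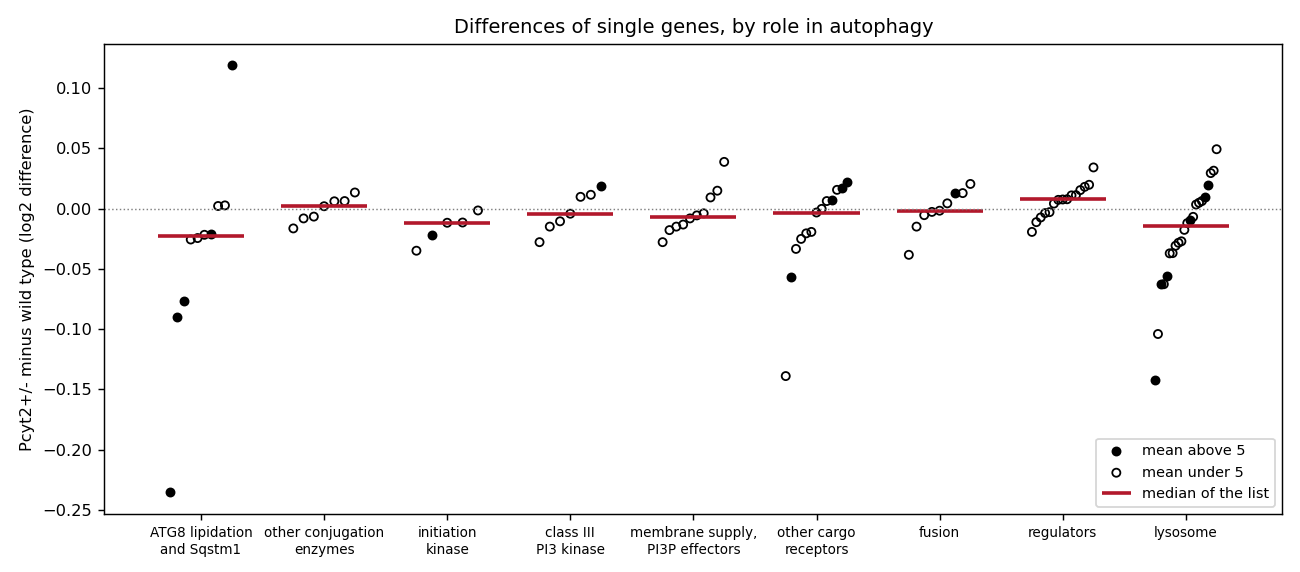
Log2 difference, Pcyt2+/- (n = 4) minus wild type (n = 2), of single genes grouped by role; filled points have a mean above 5, open points a mean under 5, and red bars are list medians. The medians lie between -0.023 for the 10 genes at the left and 0.0076 for the regulators, and the points of Gabarap (-0.24) and Gabarapl1 (0.12) lie farthest from 0 on either side.

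The surroundings of the pathway were described in the same way. In the supply of phosphatidylethanolamine 6 of 12 genes had a lower mean and 0 passed, with Pcyt2 itself first and Cept1, which joins CDP-ethanolamine to diacylglycerol, at -0.031. In other ubiquitin-like conjugation systems 7 of 11 were lower (median -0.011), with Nae1, of NEDD8 activation, at -0.030 and Isg15 at 0.019. For the lysosome 14 of 22 were lower (median -0.015). Lamp2, a lysosomal membrane protein required for fusion, had 6.12 ± 0.063 (SD, n = 4) in Pcyt2+/- and 6.26 ± 0.088 (SD, n = 2) in wild type, or -0.14 between them (adjusted p = 0.869) and -0.079 without wild type replicate 4, and Hexa, a hexosaminidase, had -0.037. Of 13 genes that answer to fasting or FOXO factors 12 had a lower mean (median -0.037), with Tat at -1.13 (adjusted p = 0.219) and Cpt1a at -0.20 (adjusted p = 0.511), and 0 passed. Over all genes 51.9% had a lower mean, and 62.4% of those with a mean above 5. The summed linear signal of these 13 genes was 731 to 972 in Pcyt2+/- and 1188 to 1206 in wild type. Only 4 of the 13 had a mean above 5, and most of the sum comes from them. The part of feeding state in the values of the 10 genes was not tested.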

How the data were processed

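Total RNA of snap-frozen liver was hybridised to Affymetrix arrays, 1 per mouse, for 4 Pcyt2+/- and 2 wild type mice, per the labels. The authors deposited 1 log2 value per probe set. RMA is the tool named in the submitters' processing notes, with neither version nor build given in the sources used here. Of 28996 probe sets, 21218 had 1 gene symbol, 1881 several and 5897 were unnamed here. Of those with 1 symbol, 21185 had their gene identifier in RefSeq (GRCm38.p6), and 0 symbols needed an update. For 1386 genes with several rows the brightest was used, which left 18820 genes.

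Groups were compared with limma 3.58.1 in R 4.3.3 (default eBayes, two-sided, all 6 arrays, no covariates), with Benjamini-Hochberg adjustment over all genes and a threshold of 0.05. Single genes also had a two-sided exact permutation test. Lists were described by counts and medians only. The fit was tested on simulated data, with full log2 shifts added to genes drawn at random. Genes at the floor received the same shifts, so the simulation does not show which changes in RNA these arrays could detect. The median SE was 0.0142 over all genes and 0.0507 over those with a mean above 5. Named were the 10 genes, Pcyt2, 8 fixed partners, and from each other list any gene that passed or otherwise the 2 with the smallest unadjusted p. The 10 genes and all lists were chosen with earlier results of these data known. Other steps used Python 3.11.15. The promoter table was searched in the 250 bases before each start. Other settings are given in the closing section.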

Additional observations from a re-analysis of the deposited data

Results flagged for a closer look

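In 2 of 40 genes examined (the 10 genes and 30 others taken by the naming rule), 1 of the 4 Pcyt2+/- arrays stood apart from the other 3, with a ratio of gap to range above Dixon's critical value, a rate that chance gives in about 1 of 20 groups. For Keap1 it was Pcyt2+/- replicate 1 at 4.439, with the others between 4.395 and 4.401 and a ratio of 0.848. For Atg16l2 it was Pcyt2+/- replicate 4 at 4.507, with the others between 4.478 and 4.482 and a ratio of 0.833. None of the 10 genes themselves had such an array, and the 2 wild type arrays are too few for this comparison.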

How the results depend on the processing

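None of the 10 genes passed under any of the other settings, with a lowest adjusted p of 0.213 (Gabarap without wild type replicate 3). Of 156 values of single genes under other settings, 150 kept their direction and 6 turned, all 6 with 1 array left out. Settings such as a filter on the mean, another prior or an unmoderated statistic leave the difference itself unchanged. Those values could not turn. Without wild type replicate 4 the differences were 0.0273 for Gabarap, 0.0337 for Gabarapl2 and -0.0125 for Map1lc3a, and without wild type replicate 3 they were -0.4980, -0.2134 and 0.0178. Map1lc3a was -0.0054 without Pcyt2+/- replicate 3. Atg7 was -0.0028 without Pcyt2+/- replicate 2, -0.0024 without replicate 4 and 0.0080 without replicate 3. The cause of these turns was not tested. Over all genes in the fit the median was -0.0071 with a mean above 4.6, -0.0201 with a mean above 5, and -0.0360 on the linear scale. The median of the 10 genes was -0.0764 over the 5 with a mean above 4.6 or above 5. It was -0.1810 over these 5 on the linear scale less the median signal of the array, with genes of a mean above 4.6 in the fit. There Gabarap, Gabarapl1, Gabarapl2, Map1lc3b and Sqstm1 differed by -0.283, 0.175, -0.214, -0.064 and -0.181. With each array left out in turn the median ran from -0.0352 to -0.0079. Over all genes limma called 3 genes among those with a mean above 5, 3 on the linear scale, 9 with a trended and robust prior, and 0 to 9 with 1 array left out, the 9 without wild type replicate 3. Fits without 1 wild type array assume that the other varies like the Pcyt2+/- arrays. The number shared by replicates 3 and 4 is not stated to mark a litter or batch. With the replicate number as a block, 2 genes were called and the difference of Gabarapl1 was 0.0840. That difference rests on replicates 3 and 4 alone, since Pcyt2+/- replicates 1 and 2 have no wild type array of the same number. Across genes, deviations from the group means had an r of 0.15 for the pair numbered 3 and 0.07 for the pair numbered 4. The pair of Pcyt2+/- replicate 1 and wild type replicate 4 had 0.19. With 2 wild type arrays their deviations mirror each other, so each r is repeated with the opposite sign for the other wild type array. These values cannot decide whether the shared number marks a litter or batch. The Map1lc3b value of -0.0349 comes from its other probe set, a setting chosen after seeing the data. Of 32 other named genes, 6 turned with 1 array left out (Nfe2l2, Keap1, Ulk1, Atg16l1, Atg4b and Bnip3), values added after seeing the data. Medians of the other lists moved within the spread between arrays in 64 of 84 cases and ran from -0.0511 to 0.0127.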
